A study of Bos indicus and Bos taurus with 17 samples.

Results

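The host defence genes of milk described here are 10 genes whose products kill or starve microbes, mark them for removal or carry antibody into milk: LTF, LPO, LCN2, HP, PTX3, PGLYRP1, CATHL1, CATHL2, CATHL3 and PIGR. They were chosen by name, with earlier results of these data known, and each was looked up among the 21631 distinct gene names of the expression table. Of the 10, 4 were found: LPO, PIGR, PTX3 and PGLYRP1, each in 1 entry that carries no other gene name. No name matched LTF, LCN2, HP, CATHL1, CATHL2 or CATHL3, and these 6 genes were not analysed here. The table also held 36143 entries without a name and 5858 with an Ensembl identifier only. The 6 genes may be among these, so that their absence from the names is not read as absence of expression.

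RNA was sequenced from epithelial cells of milk of Kashmiri cattle, a small hill breed of Kashmir, and of Jersey cattle, a dairy breed, at day 15 (D15), D90 and D250 after calving. There were 17 labelled samples in 6 groups of breed and day, with 3 samples in each group except for 2 in Jersey D90. The cows were healthy and untreated and were kept on a single farm, and the epithelial cells were captured from the milk cells with magnetic beads carrying an antibody to cytokeratin 18, the product of KRT18. Expression is given in FPKM (fragments divided by transcript length and by sequencing depth, hence a level per length), with 1 value per gene and group as the authors computed it. No value per cow was analysed, so that no level below has an error and no difference was tested here. The reads behind each value are unknown. By the labels, the Kashmiri groups held 1, 3 and 1 samples from lactation number 2 at D15, D90 and D250. The Jersey groups held 2, 1 and 3, and all others were from lactation number 3. The paper instead describes 3 cows per breed, all in lactation 3, each sampled on all 3 days. Samples of different days may therefore come from the same cows, which the labels do not show. All samples of a day carry the same month, so that day of lactation and season cannot be told apart.

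The mammary gland secretes its own defence proteins into milk with the nutrients. Lactoperoxidase (LPO) is a secreted haem enzyme that uses hydrogen peroxide to turn thiocyanate into a microbicidal oxidant. The polymeric immunoglobulin receptor (PIGR) carries dimeric IgA across the epithelial cell, and its shed outer part goes into milk as the secretory component. Pentraxin 3 (PTX3) is a soluble pattern recognition protein that binds microbes and complement C1q, is stored in neutrophil granules and is made by many cells on inflammatory signals. Peptidoglycan recognition protein 1 (PGLYRP1) binds the bacterial cell wall and is known from neutrophil granules. LPO and PIGR are known as epithelial products, and marker genes of cell types were therefore set beside the values below.

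The labelled cell type was checked first, by marker genes. The paper had checked it by quantitative PCR of D90 samples. It reported KRT18 and CSN2 higher, and the blood cell genes LSP1, CD18 and HBA lower, in captured cells than in all milk cells. The summed level of 15 epithelial marker genes was 5963, 741 and 2662 FPKM in Kashmiri cattle at D15, D90 and D250, and 2759, 107 and 1412 FPKM in Jersey cattle. None of the 15 was listed at 0 in any group, but KRT18 itself stood at 51.3, 9.13 and 11.5 FPKM in Kashmiri and at 33.7, 1.59 and 4.51 FPKM in Jersey. The 14 neutrophil markers found of 18 summed to 209, 565 and 698 FPKM in Kashmiri and to 5512, 6871 and 16097 FPKM in Jersey. CXCR1, CXCR2, FCGR3A and FPR1 matched no name, and MMP8 was at 0 or under 0.1 FPKM in every group. Macrophage markers, 12 of 12 found, summed to between 562 and 7328 FPKM, T and NK cell markers, 10 of 12, to between 272 and 3260, B and plasma cell markers, 7 of 9, to between 12.5 and 85.9, and red blood cell markers, 4 of 7, to under 1 FPKM. Of the macrophage sum, APOE alone gave 463 FPKM in Kashmiri D15, 1764 in Kashmiri D90 and 4414 in Jersey D90. It was listed at 0 in Jersey D15, and such values can be failed estimates. The neutrophil sum was above the epithelial sum in all 3 Jersey groups and below it in all 3 Kashmiri groups, and the group labelled Jersey D90 stood apart with the lowest epithelial sum of the 6. The macrophage sum was above the epithelial sum in Kashmiri D90 (2419 FPKM), Jersey D90 (7328) and Jersey D250 (2521), and below it in the other groups. In Kashmiri D90 this rested on APOE, without which the macrophage sum would lie below the epithelial sum. In Jersey D90 and Jersey D250 the order would hold without APOE. The sum of T and NK cell markers was above the epithelial sum in Kashmiri D90 (3260) and Jersey D90 (1883) only. Of these sums CCL5 alone gave 1649 FPKM in Kashmiri D90 and 1710 in Jersey D90. In Jersey, 8 of the 10 T and NK cell markers were lower at D90 than at D15. In Jersey D90 the macrophage sum was also above the neutrophil sum, but would be below it without APOE. The main milk protein genes could not be used as epithelial markers, because CSN1S1, CSN2 and PAEP were listed at 0 in 5 groups each, CSN3 in 3 and LALBA in 2. The paper prints high FPKM in every group for CSN1S1, CSN2, CSN3, LALBA and, as LGB, for beta-lactoglobulin (PAEP). These values of 0 are therefore not read as absence. In bulk RNA such as this, fewer cells of a type and less RNA per cell cannot be told apart.

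The 4 genes fell into separate patterns over the 6 groups. LPO and PIGR were highest in Kashmiri D15 and lowest in Jersey D90. PTX3 ran the other way between breeds, lowest in Kashmiri D15 and highest in Jersey D250. PGLYRP1 stayed under 4 FPKM in every group.

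**Figure D1:**
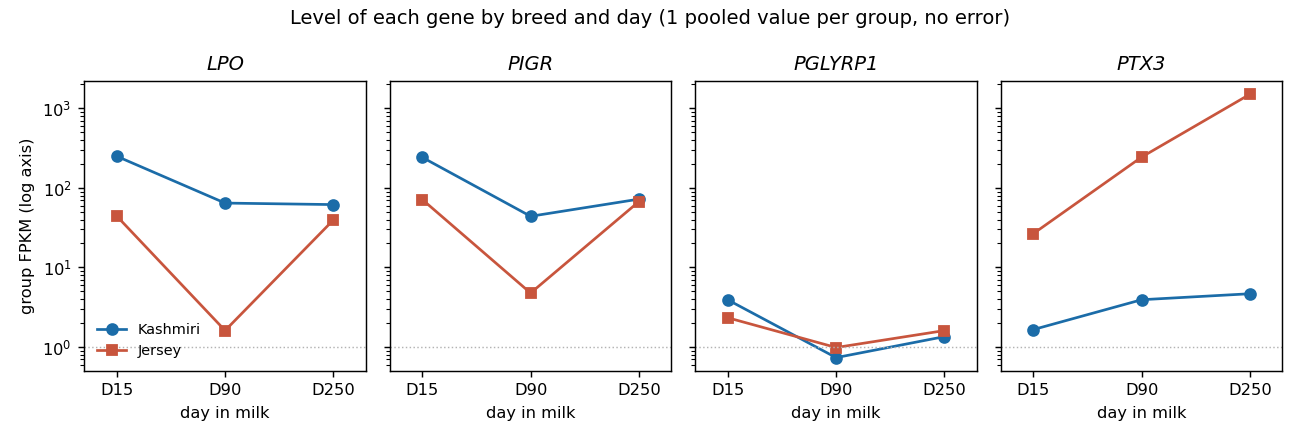
Level of LPO, PIGR, PGLYRP1 and PTX3 in FPKM on a log axis in each group of breed (Kashmiri, Jersey) and day of lactation (D15, D90, D250); each point is the authors' single value for a group, so there are no error bars. LPO and PIGR dip at Jersey D90 to 1.61 and 4.76 FPKM, whereas PTX3 climbs in Jersey from 26.5 to 1506 FPKM and stays under 5 FPKM in Kashmiri.

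LPO, the peroxidase, was expressed at 249.8, 64.4 and 61.6 FPKM in Kashmiri cattle and at 44.2, 1.61 and 39.5 FPKM in Jersey cattle at D15, D90 and D250. Kashmiri D15 stood highest and Jersey D90 lowest, 155-fold apart, and the other 4 groups lay between 39.5 and 64.4 FPKM. By level among all 21631 names, LPO took place 365 in Kashmiri D15 and place 9276 in Jersey D90. From D15 to D90 its level was 3.88-fold lower in Kashmiri and 27.5-fold lower in Jersey. From D90 to D250 it was 24.6-fold higher in Jersey, while the Kashmiri levels differed by a log2 ratio of -0.06, which turned positive under both other scalings of the groups, to 0.63 after scaling to the sum of all but the milk protein genes and to 0.04 after scaling by the upper quartile. Jersey D250 over D15 gave a log2 ratio of -0.16, so that the large Jersey differences both rest on the D90 group. LPO was 5.65-fold higher in Kashmiri than in Jersey at D15, 40.1-fold at D90 and 1.56-fold at D250.

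The epithelial marker sum moved with LPO. Over the 6 groups the log2 level of LPO and the log2 of that sum had a Pearson r of 0.92, a description over points in which both measures come from the same libraries. Per 1000 FPKM of summed epithelial markers, LPO was at 41.9, 86.9 and 23.2 in Kashmiri and at 16, 15.1 and 28 in Jersey, a 5.76-fold range in place of 155-fold. On this scale Kashmiri D90 was the highest group and Jersey D90 was close to Jersey D15. KRT19 and ELF5 gave most of the epithelial sum in every group but Jersey D90. Levels per this sum, here and for PIGR below, therefore largely set a gene against KRT19 and ELF5. Against KRT18 alone, LPO would be highest in Jersey D250. The part of epithelial content in the differences of LPO was not tested.

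PIGR, the antibody transporter, was expressed at 242, 43.9 and 72.2 FPKM in Kashmiri and at 71.4, 4.76 and 67.3 FPKM in Jersey at D15, D90 and D250. As for LPO, Kashmiri D15 was the highest group and Jersey D90 the lowest, here 50.9-fold apart, and Jersey D15, Jersey D250 and Kashmiri D250 lay within 67.3 to 72.2 FPKM. From D15 to D90 the level was 5.51-fold lower in Kashmiri and 15-fold lower in Jersey, and from D90 to D250 it was 14.1-fold higher in Jersey. Between breeds PIGR was 3.39-fold higher in Kashmiri at D15, 9.23-fold at D90 and 1.07-fold at D250.

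LPO and PIGR went up and down together, with r = 0.97 of their log2 levels over the 6 groups. Since FPKM is a level per length, both can be set side by side. LPO stood at 1.03, 1.47 and 0.854 times the level of PIGR in Kashmiri and at 0.619, 0.338 and 0.587 times in Jersey, so that the ratio was higher in every Kashmiri group than in every Jersey group. PIGR had r = 0.97 with the epithelial sum, and per 1000 FPKM of that sum it was at 40.6, 59.2 and 27.1 in Kashmiri and at 25.9, 44.7 and 47.7 in Jersey. That 2.29-fold range was narrower than the 50.9-fold range of the level itself. The part of epithelial content was not tested.

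PTX3, the pentraxin, was expressed at 1.65, 3.92 and 4.66 FPKM in Kashmiri and at 26.5, 244 and 1506 FPKM in Jersey at D15, D90 and D250. All 3 Jersey groups were above all 3 Kashmiri groups, and the highest and lowest were 912-fold apart, the widest range of the 4 genes. In Jersey the level was 9.19-fold higher at D90 than at D15, 6.18-fold higher at D250 than at D90, and 56.7-fold higher at D250 than at D15. The Kashmiri levels were in the same order but closer, at 2.37-fold, 1.19-fold and 2.82-fold. PTX3 was 16.1-fold higher in Jersey than in Kashmiri at D15, 62.2-fold at D90 and 323-fold at D250. At Jersey D250 it took place 88 by level among all names, against place 7216 in Kashmiri D250. The paper, which tested the groups, lists PTX3 among its largest breed differences at D250, with an adjusted p-value just under its cutoff.

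Among the 11320 named genes with at least 1 FPKM in Jersey D250 or D15, 11 had a log2 ratio at or above that of PTX3. For Jersey over Kashmiri at D250 it was 9 of 11642. PTX3 stood at 0.00661, 0.0609 and 0.0757 times the level of LPO in Kashmiri, and at 0.601, 152 and 38.1 times in Jersey.

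Neutrophil markers moved with PTX3, with r = 0.94 between its log2 level and the log2 of their sum over the 6 groups. Per 1000 FPKM of summed neutrophil markers PTX3 was at 7.92, 6.94 and 6.68 in Kashmiri and at 4.82, 35.5 and 93.6 in Jersey. On this scale the 3 Kashmiri groups and Jersey D15 lay close together, and Jersey D90 and D250 were above them. The range over all groups was 19.4-fold in place of 912-fold. The part of neutrophil content in the breed and day differences of PTX3 was not tested.

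PGLYRP1, the other recognition protein, was expressed at 3.91, 0.733 and 1.35 FPKM in Kashmiri and at 2.33, 0.983 and 1.61 FPKM in Jersey. In both breeds D15 was the highest day and D90 the lowest, 5.33-fold apart in Kashmiri and 2.37-fold in Jersey. The Jersey level was 0.595 times the Kashmiri level at D15, 1.34 times at D90 and 1.19 times at D250. None of these differences passed the limit used below, and the log2 ratio between breeds at D250, 0.15, turned negative (-0.32 and -0.15) under both other scalings.

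Although known as a neutrophil product, PGLYRP1 had r = -0.28 with the neutrophil sum and r = 0.75 with the epithelial sum over the 6 groups. Per 1000 FPKM of summed neutrophil markers it was at 18.7, 1.3 and 1.93 in Kashmiri and at 0.422, 0.143 and 0.0997 in Jersey, every Kashmiri group above every Jersey group. At levels this low, and with unknown reads, the order of its groups is uncertain.

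**Figure D2:**
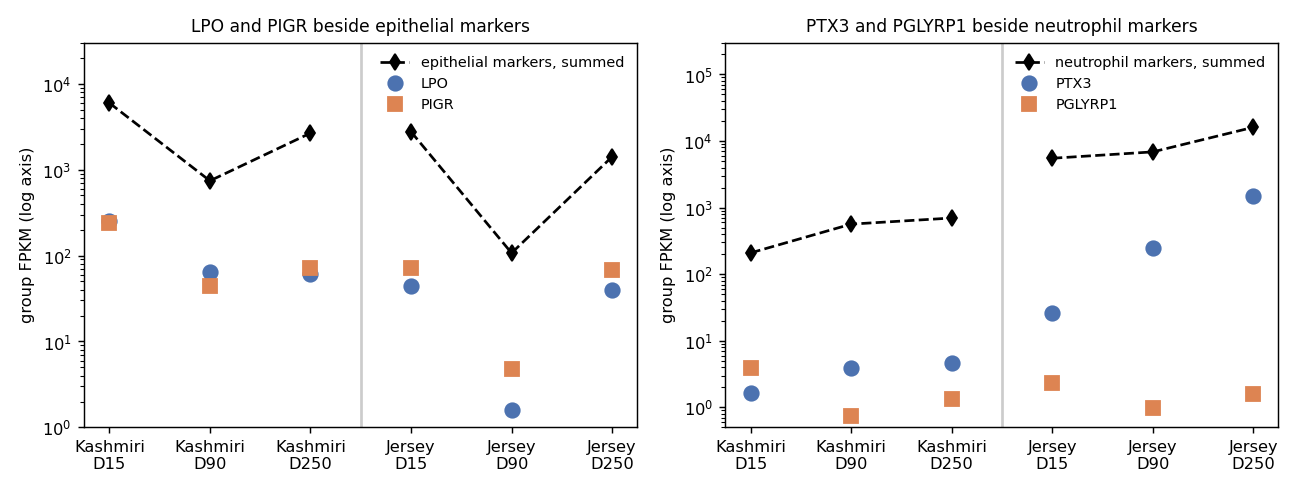
Levels of LPO and PIGR with the summed epithelial markers, and of PTX3 and PGLYRP1 with the summed neutrophil markers (dashed black lines), in FPKM on log axes, in the 6 groups of breed and day; each point is a single group value and has no error. LPO and PIGR follow the epithelial sum down to 107 FPKM at Jersey D90, PTX3 follows the neutrophil sum up to 16097 FPKM at Jersey D250, and PGLYRP1 follows neither to that extent.

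The comparisons were then placed beside all named genes. A gene was counted as risen or fallen where the log2 ratio of FPKM + 1 between the groups was at least 2 in size (4-fold) and at least 1 of the groups had 1 FPKM or more. In Kashmiri, D90 over D15, 0 of the 4 genes were higher and 1, PIGR (log2 ratio -2.44), was lower, against 2.34% higher and 5.16% lower of 11297 named genes. For D250 over D90, 0 of 4 passed in either direction, against 0.859% higher and 1.12% lower. For D250 over D15, 0 were higher and 1 was lower, LPO at -2, which is at the limit itself, against 1.85% and 2.2%. LPO at D90 over D15, with -1.94, was just inside the limit, so that which Kashmiri comparison counted LPO turned on a small difference.

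In Jersey, D90 over D15, 1 of 4 genes rose (PTX3, 3.15) and 2 fell (LPO, -4.11, and PIGR, -3.65), against 2.98% higher and 3.78% lower of 11080 named genes. From D90 to D250, 3 of 4 rose (LPO, 3.96, PIGR, 3.57, and PTX3, 2.62) and 0 fell, against 3.72% and 0.466%. For D250 over D15, which leaves out the D90 group, 1 of 4 rose (PTX3, 5.77) and 0 fell, against 9.17% and 3.42%. The median log2 ratio of the 4 genes was -2.2, 3.09 and -0.12 in these Jersey comparisons, beside -0.07, 0.15 and 0.07 for all genes. In Kashmiri it was -1.72, 0.32 and -1.4, beside -0.01, 0.03 and -0.04, and the last went to -0.55 after scaling to the sum. Of the epithelial markers, 6 of 14 had fallen in Kashmiri and 10 of 15 in Jersey at D90 over D15, with none risen, and 4 of 15 had risen in Jersey at D250 over D90, the same directions as LPO and PIGR. The other day comparisons matched only in part. In Jersey at D250 over D15, 5 of 14 had fallen with a median of -1.11, while LPO and PIGR stood at -0.16 and -0.08. In Kashmiri at D250 over D90, 2 of 14 had risen with a median of 1.4, while LPO stood at -0.06 and PIGR at 0.7. In Kashmiri at D250 over D15, 1 of 14 had fallen with a median of -0.58, which turned to 0.42 after scaling to the sum. There LPO stood at -2 and PIGR at -1.73, and at -1 and -0.73 after that scaling.

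Between breeds, Jersey over Kashmiri at D15, 1 of 4 genes was higher (PTX3, 3.38) and 1 lower (LPO, -2.47), against 6.45% higher and 2.12% lower of 11202 named genes. PIGR, at -1.75, was inside the limit. At D90, 1 of 3 genes was higher (PTX3, 5.64) and 2 were lower (LPO, -4.65, and PIGR, -2.96), against 6.58% and 5.17%, with PGLYRP1 left out because both of its values were under 1 FPKM. At D250, 1 of 4 was higher (PTX3, 8.06) and 0 lower, against 10.9% and 1.37%. The median of the 4 genes was -1.15 at D15, -2.96 at D90 over 3 genes and 0.03 at D250, beside -0.13, -0.03 and -0.1 for all genes; at D90 it was -1.15 after scaling to the sum, which brought PGLYRP1 in. The D90 breed comparison and 2 of the 3 Jersey day comparisons share the Jersey D90 value, and their results are not independent of each other.

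**Figure D3:**
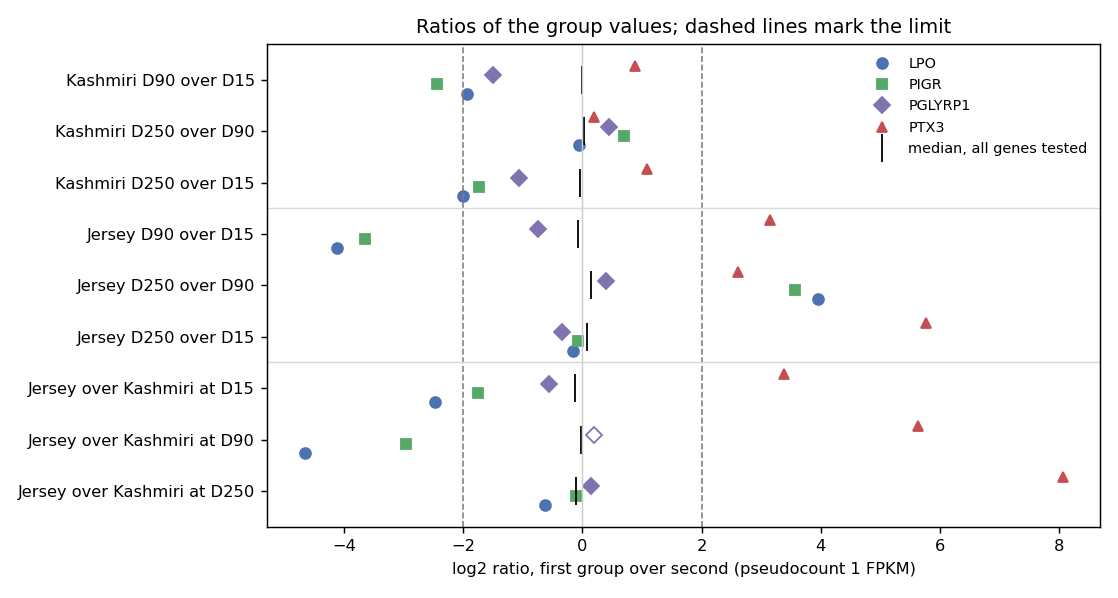
Log2 ratio (pseudocount 1 FPKM) of LPO, PIGR, PGLYRP1 and PTX3 in the 9 comparisons of 2 groups, with dashed lines at the 4-fold limit of 2 in size; the hollow point for PGLYRP1 marks a comparison in which both groups were under 1 FPKM and which was not counted. PTX3 passes the limit in all 6 comparisons that involve Jersey and in none within Kashmiri, and LPO and PIGR both fall to Jersey D90 and rise after it.

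The day differences were also set against each other between breeds, as the Jersey log2 ratio minus the Kashmiri log2 ratio. For LPO the difference was -2.18 from D15 to D90, 4.02 from D90 to D250 and 1.84 from D15 to D250. For PIGR it was -1.22, 2.86 and 1.65, and for PTX3 2.26, 2.42 and 4.68. For PGLYRP1 it was at most 0.75 in size. The values describe single group values, and whether the breeds differ in their day differences was not tested.

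The genes with the pattern most like each of these were sought among 3633 names with at least 10 FPKM in a group and a log2 range of at least 2, by Pearson r of log2(FPKM + 1) over the 6 groups. For LPO the closest were BICDL1 (r = 0.9842), EPHX1 (0.9813), an epoxide hydrolase, and HHIPL2 (0.9805). BICDL1 was at 232, 48.2 and 86.6 FPKM in Kashmiri and at 32.5, 1.83 and 27.7 FPKM in Jersey. For PIGR they were HHIPL2 (0.9965), GP2 (0.994), a membrane glycoprotein that binds bacteria, and AZGP1 (0.9905), a secreted zinc-binding glycoprotein. HHIPL2 stood at 259.9, 26.2 and 52.9 FPKM in Kashmiri and at 40.5, 0.763 and 34.6 FPKM in Jersey, and so dipped at Jersey D90 as LPO and PIGR did. GP2 was at 365, 25.9 and 69 FPKM in Kashmiri and at 56.3, 1.98 and 58.7 FPKM in Jersey.

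For PTX3 the closest were CD47 (0.9973), the surface protein known as a signal against engulfment, OLFM4 (0.9973), a protein of a subset of neutrophils, and FFAR2 (0.9971), a receptor for short-chain fatty acids found on neutrophils. FFAR2 was at 0.289, 0.621 and 0.861 FPKM in Kashmiri and at 4.62, 31.5 and 181 FPKM in Jersey. OLFM4 was at 0.406, 1.35 and 0.878 FPKM in Kashmiri and at 5.44, 22.3 and 61.9 FPKM in Jersey. A pattern like that of PTX3 was common, with 421 gene symbols at r of 0.95 or more, against 76 for PIGR and 37 for LPO. PGLYRP1 never reached 10 FPKM and was not searched. With 6 points, high values of r are easily found in a search of this size, and nothing is drawn from them.

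Related genes were followed in 4 lists: other antimicrobial proteins, other acute phase proteins, the binding partners and processing genes of the 10 genes (binding partners below), and the signals known to control them. The genes named for their levels are those with the highest mean in each list, and those named beside a count were picked after their values were seen. The list counts stand beside the shares of all named genes already given, for Jersey over Kashmiri 6.45% higher and 2.12% lower at D15, 6.58% and 5.17% at D90, and 10.9% and 1.37% at D250. Of the other antimicrobial proteins, 16 of 33 were found. Between breeds 6 of 12 were higher and 2 lower in Jersey at D15, 7 of 12 higher and 2 lower at D90, and 6 of 13 higher and 0 lower at D250. After scaling to the sum MUC15 was no longer lower at D15 and ELANE was higher. The median log2 ratio of the list was 2.1, 2.77 and 1.72, beside -0.13, -0.03 and -0.1 for all genes.

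S100A8, S100A9 and S100A12, the calgranulins, which withhold metals from microbes and are abundant in neutrophils, were higher in Jersey on every day. S100A12 was at 39, 240.4 and 294 FPKM in Kashmiri and at 1615, 2267 and 4014 FPKM in Jersey. These 3 genes were also in the neutrophil list, of which 11 of 13, 11 of 13 and 11 of 12 were higher in Jersey at D15, D90 and D250, against 6.45%, 6.58% and 10.9% of all genes. At D250 the count was 9 of 12 under both other scalings. XDH, a milk fat globule enzyme and a source of hydrogen peroxide for LPO, was at 1953, 323 and 1604 FPKM in Kashmiri and at 562, 205 and 986 FPKM in Jersey. It was lowest at D90 in both breeds and, like LPO, higher in Kashmiri on each day. Of the 9 comparisons it passed the limit in Kashmiri D90 over D15, Kashmiri D250 over D90 and Jersey D250 over D90, the last of which was lost under both other scalings. Over days, 2 of 11 of the list were higher and 2 lower at Kashmiri D90 over D15 (LYZ and S100A12 against RNASE4 and XDH), 1 of 10 was higher at D250 over D90 (XDH) and 3 of 11 at D250 over D15 (LYZ, S100A12 and RNASE6), against 2.34% higher and 5.16% lower, 0.859% higher and 1.85% higher of all genes. The last count was 5 of 10 after scaling to the sum and 4 of 11 by the upper quartile, with S100A9 added in both and S100A8 in the first. In Jersey the counts were 3 of 13 higher (LYZ, DEFB7 and PRTN3) and 2 lower (MUC1 and MUC15), then 3 of 13 higher (MUC1, MUC15 and XDH), and 1 of 13 higher for D250 over D15 (LYZ), against 2.98% higher and 3.78% lower, 3.72% higher and 9.17% higher.

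Of the other acute phase proteins, 14 of 24 were found, and 7 at most had 1 FPKM in a comparison. Jersey over Kashmiri, 3 of 7 were higher at D15 (CD14, TTR and A2M), 2 of 6 were higher at D90 (CD14 and A2M) with 1 lower (LBP), and 2 of 7 were higher at D250 (CD14 and A2M), against 6.45%, 6.58% (5.17% lower) and 10.9% of all genes. After scaling to the sum, the LBP call at D90 was lost and TTR was gained. The median was 0.21, 0.43 and 0.4, beside -0.13, -0.03 and -0.1 for all genes, and at D250 it turned to -0.36 and -0.1 under both other scalings, with TTR and LBP then lower. CD14, the co-receptor for lipopolysaccharide, was at 51.8, 69.5 and 68.3 FPKM in Kashmiri and at 329.7, 536 and 636 FPKM in Jersey. LBP, which hands lipopolysaccharide to CD14, ran the other way, at 47.8, 7.3 and 11.5 FPKM in Kashmiri and at 29.8, 0.993 and 2.74 FPKM in Jersey. Complement C3 was at 111, 77.1 and 204 FPKM in Kashmiri and at 85.9, 41.4 and 270.3 FPKM in Jersey, lowest at D90 in both. Over days, LBP fell in Kashmiri and Jersey at D90 over D15 and in Jersey at D250 over D15, TTR fell in Jersey at D250 over D90 and over D15, and C3 rose in Jersey at D250 over D90, and no other gene of the list passed the limit between days. After scaling to the sum C3 also rose in Kashmiri at D250 over D90 and TTR at D250 over D15.

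Of the binding partners, 19 of 24 were found. Jersey over Kashmiri, 8 of 12 were higher at D15 and 0 lower, 5 of 12 were higher at D90 (LRP1, ELANE, PRTN3, TREM1 and TNFAIP6) and 1 lower (JCHAIN), and 3 of 13 were higher at D250 (ELANE, TREM1 and TNFAIP6), with medians of 3.15, 1.75 and 1.03. All genes gave 6.45% and 2.12%, 6.58% and 5.17%, and 10.9% higher, with medians of -0.13, -0.03 and -0.1. The calls of TNFAIP6 at D15 and of LRP1 at D90 were lost after scaling by the upper quartile, and ELANE at D15 and CD163 at D90 were gained after scaling to the sum. TNFAIP6, which binds PTX3 in hyaluronan matrix, was at 0.588, 1.71 and 2.01 FPKM in Kashmiri and at 5.71, 86.5 and 216 FPKM in Jersey, the same order of groups as PTX3. The C1q chains, ligands of PTX3, were not in that order: C1QA was at 6.73, 31.3 and 24.2 FPKM in Kashmiri and at 145, 60.3 and 12 FPKM in Jersey. Over days in Kashmiri, C1QA rose at D90 over D15, 1 of 12 against 2.34% of all genes, 0 of 11 passed the limit at D250 over D90, and CD163 and LRP1 rose at D250 over D15, 2 of 12 against 1.85%. In Jersey, TFRC, PRTN3 and TNFAIP6 rose at D90 over D15, 3 of 13 against 2.98%, and C1QA, C1QB and C1QC fell at D250 over D90, 3 of 12 against 0.466%. At D250 over D15 in Jersey, TNFAIP6 rose, 1 of 13 against 9.17%, and C1QA, C1QB and C1QC fell, 3 of 13 against 3.42%. The Jersey calls held under both other scalings, while in Kashmiri C1QB was gained under both at D90 over D15, and after scaling to the sum LRP1 was gained at D250 over D90 and C1QA, C1QB, TREM1 and HMOX1 at D250 over D15. C1QA, C1QB, C1QC and CD163 were also in the macrophage list. ELANE and PRTN3 were also among the other antimicrobial proteins, ELANE in the neutrophil list and JCHAIN in the B and plasma cell list. MUC1, of the other antimicrobial proteins, was also in the epithelial list, so that the counts of these lists are not independent.

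TREM1, a receptor for PGLYRP1 and also in the neutrophil list, was at 11.1, 17.6 and 24.5 FPKM in Kashmiri and at 290.3, 307 and 709.6 FPKM in Jersey, so that it was higher in Jersey on every day while PGLYRP1 was not. JCHAIN, the joining chain of the dimeric IgA that PIGR carries, was at 3.17, 11.1 and 2.93 FPKM in Kashmiri and at 2.00, 0.969 and 1.79 FPKM in Jersey. The NADPH oxidases DUOX1 and DUOX2, which supply hydrogen peroxide to LPO at other epithelia, were under 0.1 FPKM in every group. HMOX1, the haem oxygenase that breaks down haem taken up with haptoglobin, was at 15.1, 38.9 and 41.6 FPKM in Kashmiri and at 149, 118 and 65.3 FPKM in Jersey.

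Of the signals known to control these genes, 16 of 20 were found. In Jersey 3 of 14 rose from D15 to D90 (IL1B, TNF and NFKB1), 3 of 14 from D90 to D250 (IL1R1, STAT3 and SOCS3), and 8 of 14 from D15 to D250, with 0 fallen in each, against 2.98%, 3.72% and 9.17% of all genes. The call of STAT3 was lost under both other scalings. The medians were 0.63, 1.07 and 2.39, beside -0.07, 0.15 and 0.07 for all genes. In Kashmiri 1 of 14 fell at D90 over D15 (IL1R1), 1 of 14 at D250 over D90 (TNF) and 0 of 13 at D250 over D15, with none risen, against 5.16%, 1.12% and 2.2% lower of all genes. After scaling to the sum both calls were lost and IL1R1 rose at D250 over D90, where the median of the list turned from -0.29 to 0.37, and by the upper quartile the TNF call was lost. Jersey over Kashmiri, 4 of 14 were higher at D15 (IL6R, IL1B, CEBPE and SOCS3), 4 of 14 at D90 (IL1B, IL1R1, NFKB1 and SOCS3) and 9 of 15 at D250, with 0 lower in each, against 6.45%, 6.58% and 10.9% higher of all genes. By the upper quartile the calls of IL6R at D15, IL1R1 at D90 and RELA at D250 were lost, and after scaling to the sum those of TNF and RELA at D250. The medians were 0.09, which turned to -0.03 after upper quartile scaling, 1.04 and 2.51.

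IL1B, the cytokine interleukin 1 beta and a known inducer of PTX3, was at 16.2, 16.1 and 20.5 FPKM in Kashmiri and at 243, 1905 and 3290 FPKM in Jersey. NFKB1, a subunit of NF-kappa B, was at 12.9, 27.6 and 16.7 FPKM in Kashmiri and at 31.7, 182 and 265 FPKM in Jersey. Both were lower in each Kashmiri group than in every Jersey group and, within Jersey, in the order of PTX3. SOCS3, a feedback inhibitor of cytokine signals, was at 12.2, 16.7 and 9.79 FPKM in Kashmiri and at 126, 110.1 and 874 FPKM in Jersey. STAT5A, which carries the prolactin signal, differed less, at 106, 78.5 and 72.8 FPKM in Kashmiri and at 56.7, 112 and 133 FPKM in Jersey. The neutrophil sum also went up with these genes in Jersey, from 5512 to 16097 FPKM, and its part in their levels was not tested.

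**Figure D4:**
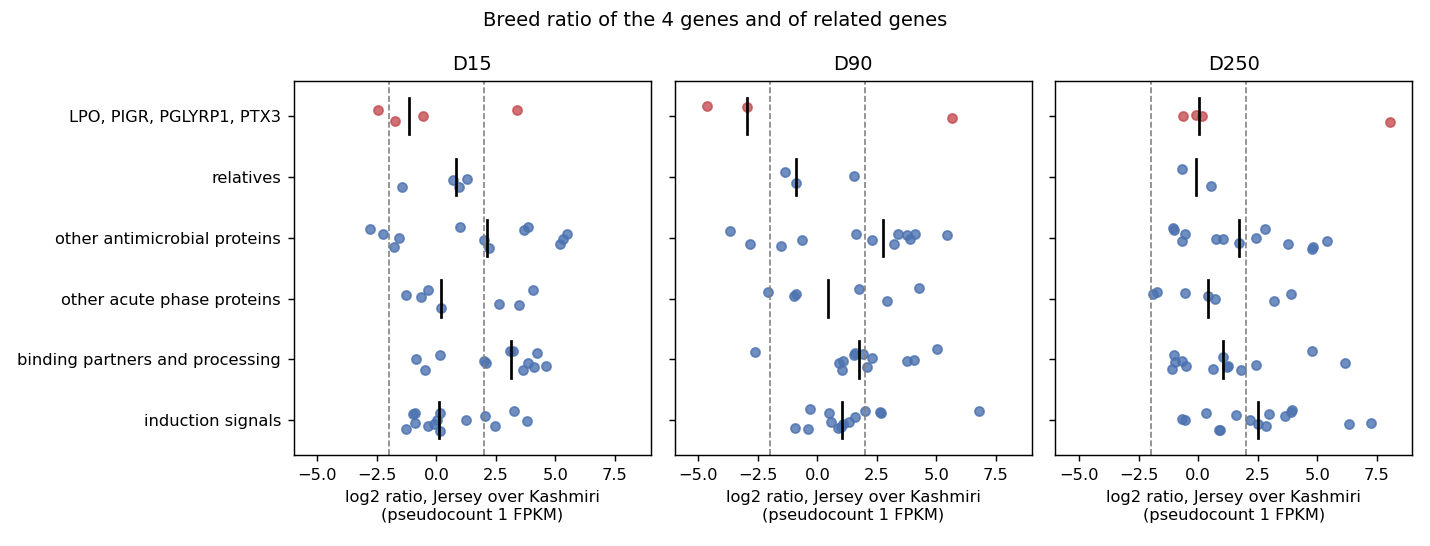
Log2 ratio of Jersey over Kashmiri (pseudocount 1 FPKM) at D15, D90 and D250 for the 4 genes found (top row) and for the genes of the related lists with at least 1 FPKM in either breed and no value of 0; each point is a gene, the vertical bars are medians and the dashed lines mark the 4-fold limit. PTX3 is the far right point of the top row at each day, and most points of the other antimicrobial proteins and of the binding partners lie above 0, with medians from 1.03 to 3.15.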

How the data were processed

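RNA of milk epithelial cells was sequenced by the authors from stranded, poly-A selected libraries. The paper describes more libraries than the 17 labelled samples, and which libraries entered each group value is not stated. Reads were trimmed (Trimmomatic) and mapped to bovine genome build UMD 3.1 (Bowtie2, TopHat), and transcripts were assembled with Cufflinks before quantification in Cuffdiff. The deposited values are FPKM computed by the authors, 1 per gene and group of breed and day, under the column name Local for Kashmiri. Values per sample and read counts were not used here, so that the depth and precision behind a value are unknown. Whether strand was used in counting is not given in the sources used here.

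The table held 61264 entries, 25121 of them named. Names were matched exactly, a joined name by each of its parts, and a repeated name by its entry with the highest mean. RNASE4, TFRC, TNF, KRT8, EPCAM, CSF3R and CTSK were found only in entries joined with other genes, and their values cannot be split. Groups were compared by log2((FPKM + 1)/(FPKM + 1)), with genes of at least 1 FPKM in either group counted at an absolute value of 2 or more; single folds had no pseudocount and this scale understates changes of low genes. Every one of the 10 genes was to be named, and in each related list the 4 genes of highest mean level; for each of the 10 that reached 10 FPKM and a log2 range of 2, the 3 names of highest r. The genes and lists were chosen with earlier results of these data known. Cuffdiff shares reads among overlapping genes, and a planned comparison of protein sequences was not run. Computation used pandas 2.3.3 with numpy 2.4.6 under Python 3.11.15, figures were drawn with matplotlib 3.10.9, and the counting was tested on simulated data. Values were also computed under 6 alternatives: a limit of 1, a pseudocount of 0.1, a minimum of 0.01 FPKM, scaling to the sum without milk protein genes, scaling by the upper quartile, and summed entries of a name.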

Additional observations from a re-analysis of the deposited data

How the results depend on the processing

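With 1 value per group, no replicate could be left out. No paired analysis was possible because the columns carry no sample numbers. Of 54 counts of the 4 genes past the limit (9 comparisons under 6 alternatives), 49 were within 1.5 times the reported count and 5 were not. In Kashmiri D90 over D15 the count of 1 became 2 with a pseudocount of 0.1 FPKM and 3 with a limit of 1. In Kashmiri D250 over D15 the count of 1 became 4 with a limit of 1, and 0 after scaling by the upper quartile or to the sum of all but the milk protein genes. For these no cause was tested beyond the wider limit, which counts more genes by construction. Of 216 single ratios 203 moved by under 0.58, 13 moved further and 0 of those past the limit reversed. Scaling to the sum moved the median of all genes in Kashmiri D250 over D15 from -0.04 to 0.81 and in Jersey over Kashmiri at D250 from -0.1 to -0.74; relative to that median, LPO in the first was at -1.96 as reported and -1.81 rescaled, and PTX3 in the second at 8.16 and 8.13. The median of the 4 genes in the second went from 0.03 to -0.59, and to -0.37 by the upper quartile. All genes past the limit ranged from 226 to 1431 over the comparisons as reported, from 630 to 2226 with a pseudocount of 0.1, from 2023 to 4800 with a limit of 1 and from 343 to 1452 after scaling to the sum. That scaling turned the split of higher against lower genes in Kashmiri D250 over D15 from 212 against 253 to 850 against 70 (311 against 161 by the upper quartile), and at D250 between breeds from 1272 against 159 to 828 against 624. Low levels such as those of PGLYRP1 rest on an unknown number of reads.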

Other observations

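Genes of the same families as the 10 were mostly low. CATHL4 was the only cathelicidin looked for that matched a name, at 0.104, 0.119 and 0.114 FPKM in Kashmiri and at 1.15, 0.838 and 0.751 FPKM in Jersey at D15, D90 and D250, so that every Jersey group was above every Kashmiri group. PGLYRP2, an amidase that cleaves peptidoglycan, was at 1.19, 5.72 and 1.61 FPKM in Kashmiri and at 4.39, 2.62 and 2.75 FPKM in Jersey. The short pentraxins CRP and APCS, relatives of PTX3, were under 0.1 FPKM in every group. PAEP, the lipocalin beta-lactoglobulin and so a relative of LCN2, was at 2076 FPKM in Jersey D90 and listed at 0 in the other 5 groups. The paper prints far higher values for beta-lactoglobulin, as LGB, in every group. The 3 counts of PAEP past the 4-fold limit rest on values listed at 0, which can be failed estimates, and are not read as a change. None of the other 12 relatives found passed the limit.

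The genes next to those described were looked up after the values were seen, by their order in a RefSeq annotation of a Bos indicus assembly, which is not the build of the expression table. LPO lies between MKS1 and MPO, the myeloperoxidase of neutrophils. MPO was at 0.528, 0.298 and 0.255 FPKM in Kashmiri and at 1.46, 2.8 and 0.572 FPKM in Jersey, highest where LPO was lowest. PIGR lies between FCMR and FCAMR, which also bind immunoglobulin. FCAMR was at 6.67, 1.98 and 1.17 FPKM in Kashmiri and at 1.79, 0.173 and 0.337 FPKM in Jersey, highest in Kashmiri D15 and lowest in Jersey D90 as PIGR was, whereas FCMR, at 1.09, 6.16 and 4.4 FPKM and at 4.04, 2.35 and 1.74 FPKM, was not. PTX3 lies between VEPH1, under 2 FPKM in every group, and CCNL1, a cyclin. CCNL1 was at 9.45, 35.4 and 21.2 FPKM in Kashmiri and at 15.6, 83.9 and 602 FPKM in Jersey, and so was highest in Jersey D250 as PTX3 was. PGLYRP1 lies next to CCDC61, at 15.3, 5.21 and 4.54 FPKM in Kashmiri and at 15.4, 6.48 and 5.97 FPKM in Jersey.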
